A study of Mus musculus with 4 samples.

Results

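The expression of 6 genes of cholesterol handling was followed through the immune cells of healing mouse skin wounds. The genes were Apoe, Abca1, Abcg1, Soat1, Ch25h and Nr1h3. They were taken by their symbols from the 31053 genes of the count tables, and each symbol named 1 gene. Apoe encodes apolipoprotein E, a secreted protein that carries lipid. Abca1 and Abcg1 encode membrane transporters that move cholesterol out of cells. Soat1 encodes the enzyme that esterifies cholesterol for storage in droplets. Ch25h encodes cholesterol 25-hydroxylase, which makes an oxysterol, and Nr1h3 encodes the nuclear receptor LXRα, which is switched on by oxysterols.

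Macrophages take up cholesterol when they engulf dying cells, and they dispose of it by esterification or by efflux to lipoprotein acceptors. LXRα pairs with the retinoid X receptor on DNA and raises the transcription of Abca1, Abcg1 and Apoe when sterols build up. Neutrophils die in large numbers in a fresh wound, and macrophages clear them.

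Live CD45+ cells were sorted from 3 mm excisional wounds, 1 or 5 days postwounding (dpw), and the mice were either Angptl4+/+ or Angptl4-/-. The labels give the strain as C57BL6/J for both genotypes. Angptl4 encodes a secreted inhibitor of lipoprotein lipase, and the labels do not say how the allele was made or that its loss is limited to a cell type. The paper names a Genentech line from a mutant mouse resource centre for Angptl4-/- and describes deletion in myeloid cells as a separate line. Each genotype and time point had 1 droplet library, and the number of mice behind a library is not given in the sources used here. The wild-type mice were males 8 weeks old, and the Angptl4-/- mice were males. With no replicates there was no test, so values are compared by size and every interval is a 95% interval of counting error only. Below, 4 values in a row stand for Angptl4+/+ wounds at 1 and 5 dpw and then Angptl4-/- wounds at 1 and 5 dpw, unless a sentence gives another order.

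The libraries held 32962595, 29746688, 27472052 and 26981596 UMIs (unique molecular identifiers, each a counted transcript molecule). Of 20069 barcodes, 19827 passed the filter, with medians of 3735.5 to 4975.5 UMIs per cell. Angptl4 itself had 47 and 78 UMIs in the Angptl4+/+ libraries and 0 in both Angptl4-/- libraries, as the labels have it. Any 2 libraries shared 4 to 15 barcodes. Cells were clustered without the 6 genes, and clusters were named from marker lists. Macrophage-like cells numbered 1155, 1551, 850 and 645. All 12 macrophage markers were detected in them in each library, but also in the pooled neutrophil-like cells. Because the clusters were named from these markers, their detection is no check of the name. Neutrophil-like cells numbered 3890, 2703, 3699 and 3506, monocyte-like cells 149, 123, 120 and 131, and dendritic cell-like cells 106, 307, 89 and 197. The macrophage-like cells also carried all 10 neutrophil markers, with summed levels of 11481, 1837, 10506 and 1957 CPM (UMIs of a gene per 1000000 UMIs of the class). These levels were higher at 1 dpw in both genotypes. A sub-cluster led by neutrophil genes is described below, with values without it.

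On the GRCm38 assembly, Apoe (ENSMUSG00000002985) lies on chromosome 7 from 19696109 to 19699188. Abca1 (ENSMUSG00000015243) is the longest of the 6, from 53030787 to 53159895 on chromosome 4, and up to 50 exons are annotated in a transcript. Abcg1 (ENSMUSG00000024030) lies on chromosome 17 from 31057675 to 31117988, and it is the only one of the 6 on the plus strand. Soat1 (ENSMUSG00000026600) lies on chromosome 1 from 156424525 to 156474331, Nr1h3 (ENSMUSG00000002108) on chromosome 2 from 91184061 to 91202834, and the single-exon Ch25h (ENSMUSG00000050370) on chromosome 19 from 34473778 to 34475164. Ch25h overlaps a long noncoding RNA gene, Gm26902, on the other strand. Abcg1 is 2.66 Mb from Angptl4, which is on the same chromosome.

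LXRα and its partner bind direct repeats, so the promoters in RefSeq (GRCm38.p6, 250 bases before to 50 after each start) were searched on both strands for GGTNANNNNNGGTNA, a pair of half-sites. The pattern was present in 236 of 32851 promoters (0.718%). Of the 5 genes with an entry, Abca1 alone held it, once, from -67 to -53 relative to the start. The 120 bases before the start of Abca1, chr4:53159896-53160015, are shown on the minus strand, which Abca1 is read from, because that element is the textbook LXR site of the pathway. The match is in capitals and reads as the pattern on the opposite strand.
Abca1 promoter: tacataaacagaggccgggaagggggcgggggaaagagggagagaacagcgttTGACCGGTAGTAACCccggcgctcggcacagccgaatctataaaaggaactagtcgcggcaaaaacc
A match describes the letters only, and Abcg1 had no entry.

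The genes differed in where they were expressed. Apoe, Abca1, Abcg1, Soat1 and Nr1h3 each had their highest level in macrophage-like cells in all 4 libraries, among the classes with at least 30 cells. In Angptl4-/- wounds at 1 dpw the intervals of Abcg1 in macrophage-like and NK cell/T cell-like cells overlapped, and at 5 dpw those of Soat1 in macrophage-like and monocyte-like cells overlapped. Monocyte-like cells came next for Apoe and neutrophil-like cells for Abca1 in every library. Macrophage-like cells held 86.9%, 94.9%, 80.7% and 91.6% of all Apoe UMIs. Abca1 was spread more widely, with 60.0%, 74.8%, 49.8% and 47.0% of its UMIs in macrophage-like cells and 38.3%, 23.1%, 48.5% and 50.3% in neutrophil-like cells.

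**Figure D1:**
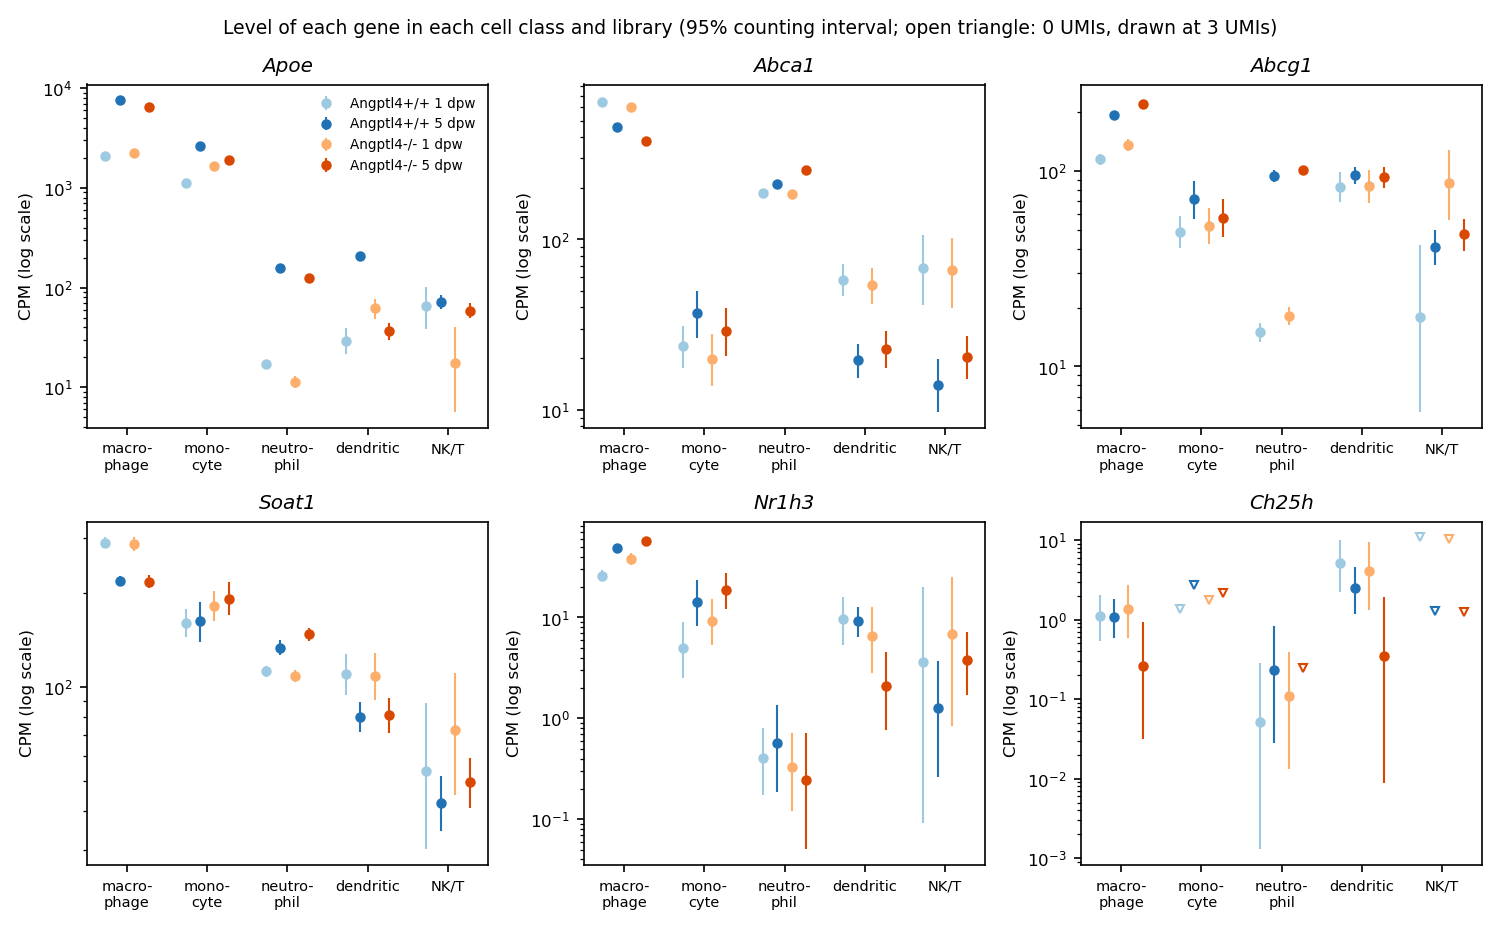
Level of each gene (CPM, log scale) in 5 cell classes, 1 point per library with its 95% counting interval; open triangles mark 0 UMIs and are drawn at the level of 3 UMIs. Apoe, Abca1, Abcg1, Soat1 and Nr1h3 are highest in macrophage-like cells, Abca1 is second in neutrophil-like cells, and Nr1h3 is close to 0 in neutrophil-like cells.

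The carrier gene, Apoe, was much higher at 5 dpw than at 1 dpw in macrophage-like cells of both genotypes. Its levels were 2111 (2081 to 2141) CPM at 1 dpw and 7556 (7509 to 7603) CPM at 5 dpw in Angptl4+/+ wounds. They were 2230.3 (2192 to 2269) CPM and 6423 (6367 to 6480.4) CPM in Angptl4-/- wounds. The log2 ratio of 5 to 1 dpw was 1.84 (1.82 to 1.86) in Angptl4+/+ wounds, or 3.58-fold, and 1.53 (1.5 to 1.55) in Angptl4-/- wounds, or 2.88-fold. Both libraries at 5 dpw were above both at 1 dpw. From the summed counts, the day ratio was smaller in Angptl4-/- wounds by 0.31 (0.28 to 0.35) on the log2 scale. Each side is a ratio of 1 library to 1 library, so this difference has no replicate check. Its size also depended on how cells were chosen and weighted. With equal weight per cell the Angptl4-/- ratio was 1.88. The highest Angptl4+/+ ratio under any alternative was 1.99, after thinning cells to equal depth. The difference with equal weight per cell was therefore smaller than 0.31. With monocyte-like cells added it was larger, with ratios of 1.90 in Angptl4+/+ and 1.45 in Angptl4-/- wounds.

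Apoe also varied widely between cells. The median macrophage-like cell had 5.00, 42.9, 5.54 and 32.5 Apoe UMIs per 10000, and 31.8%, 10.4%, 34.5% and 16.3% of these cells had none. The 10% of cells with the most Apoe held 63.6% and 62.8% of its UMIs in the 2 libraries at 1 dpw (Angptl4+/+ first), and 45.3% and 42.4% in those at 5 dpw. After each cell was thinned to 1000 UMIs, the shares of cells with an Apoe UMI were 45.9%, 79.1%, 49.2% and 71.2%, in the same order by day as the levels. The unthinned shares were 68.2%, 89.6%, 65.5% and 83.7%, at median depths of 6855, 8343, 5863.5 and 11536 UMIs.

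The 2 efflux transporters went opposite ways between the days. Abca1 had 642 (626 to 659) CPM at 1 dpw and 455 (444 to 467) CPM at 5 dpw in Angptl4+/+ macrophage-like cells, giving a log2 ratio of -0.50 (-0.55 to -0.44). In Angptl4-/- cells it had 597 (578 to 618) CPM and 381 (368 to 395) CPM, giving a log2 ratio of -0.65 (-0.72 to -0.58). Abcg1 had 115 (108 to 122) CPM and 193 (186 to 201) CPM in Angptl4+/+ cells, giving a log2 ratio of 0.75 (0.65 to 0.86). It had 136 (127 to 146) CPM and 220.0 (209.6 to 231) CPM in Angptl4-/- cells, giving a log2 ratio of 0.69 (0.57 to 0.82). None of these 4 ratios reached 2-fold, and the libraries of the 2 days did not overlap for either gene.

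Soat1, the storage enzyme, resembled Abca1 between the days and was close between the genotypes. It had 290.4 (279 to 302) CPM at 1 dpw and 218 (210.2 to 226) CPM at 5 dpw in Angptl4+/+ cells, and 287 (274 to 301) CPM and 217 (207 to 228) CPM in Angptl4-/- cells. The log2 ratios were -0.41 (-0.49 to -0.34) and -0.40 (-0.50 to -0.30).

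Nr1h3, the sterol sensor, resembled Abcg1 and Apoe. It had 26.0 (22.8 to 29.5) CPM, 49.1 (45.4 to 53.1) CPM, 38.1 (33.3 to 43.5) CPM and 56.7 (51.5 to 62.2) CPM. Between the days this gave a log2 ratio of 0.92 (0.70 to 1.14) in Angptl4+/+ cells, against 0.57 (0.33 to 0.81) in Angptl4-/- cells. Both libraries at 5 dpw were above both at 1 dpw, and neither ratio reached 2-fold. The Angptl4+/+ ratio passed 2-fold under 3 alternatives, at 1.45 after thinning each cell to 1000 UMIs, 1.15 with the same sub-cluster weights in every library and 1.09 with monocyte-like cells added. Nr1h3 was sparse, with a UMI in 14.1%, 23.3%, 16.6% and 33.3% of macrophage-like cells, so it could not be read cell by cell.

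Ch25h was almost absent. It had 63 UMIs in the 19827 cells. Macrophage-like cells held 10, 14, 8 and 2 of them and dendritic cell-like cells 8, 10, 5 and 1. Monocyte-like and NK cell/T cell-like cells held none in any library, which allows a level of up to 2.69 CPM in monocyte-like cells at a floor of 3 UMIs. In dendritic cell-like cells its level was 5.12, 2.47, 4.07 and 0.346 CPM, but the 8 UMIs of Angptl4+/+ wounds at 1 dpw came from 1 cell, and the value at 5 dpw in Angptl4-/- wounds is 1 UMI. The floor was 10.8, 1.28, 10.4 and 1.25 CPM for NK cell/T cell-like cells, so the classes could not be put in order. No fold is given for it between days or genotypes.

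**Figure D2:**
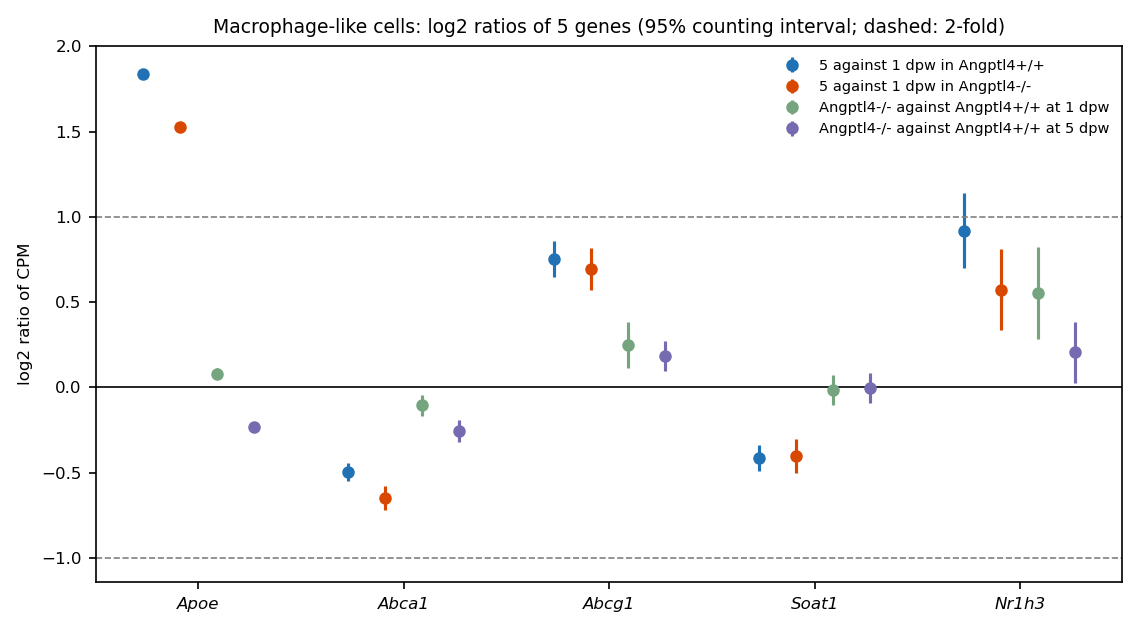
Log2 ratios of CPM in macrophage-like cells for the 2 day comparisons and the 2 genotype comparisons; points are ratios of 1 library to 1 library, bars are 95% counting intervals, and dashed lines mark 2-fold. Only the 2 day ratios of Apoe (1.84 and 1.53) lie beyond 2-fold, Abcg1 and Nr1h3 lie above 0 and Abca1 and Soat1 below 0 between the days.

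Counted by size, 1 of the 5 genes with at least 100 UMIs (Apoe) was 2-fold or more higher at 5 than at 1 dpw in macrophage-like cells of each genotype. Of all genes tested in the same way, 10.7% differed by 2-fold or more in Angptl4+/+ and 7.85% in Angptl4-/- wounds. The median log2 ratio of the 5 genes was 0.75 and 0.57, beside 0.15 and 0.07 over all genes. Scaling by the median of ratios over genes lowered every log2 ratio of the day comparison by 0.17 in Angptl4+/+ and 0.11 in Angptl4-/- macrophage-like cells, less than the ratio of any of the 5 genes.

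Between the genotypes none of the 5 genes reached 2-fold in macrophage-like cells at either time point, where 0.740% of all genes did at 1 dpw and 1.13% at 5 dpw. At 5 dpw Apoe was lower in Angptl4-/- cells, with a log2 ratio of -0.23 (-0.25 to -0.22), and so was Abca1, at -0.26 (-0.32 to -0.19). At 1 dpw the ratios were 0.08 (0.05 to 0.11) for Apoe and -0.10 (-0.17 to -0.04) for Abca1. Abcg1 was above its Angptl4+/+ level at both time points, by 0.25 (0.11 to 0.38) and 0.19 (0.10 to 0.28), and Nr1h3 by 0.55 (0.28 to 0.82) and 0.21 (0.03 to 0.38), of which the second turned to -0.44 after thinning. For Soat1 the ratios were -0.02 (-0.10 to 0.07) and -0.00 (-0.09 to 0.08). These intervals hold counting error only, so they set no limit on a difference between animals. The 2 genotype comparisons use the same 4 libraries as the 2 day comparisons and are not independent of them. Because Abcg1 lies near Angptl4, the other genes within 5 Mb of Angptl4 were read beside it. They had a median log2 ratio of 0.05 over 121 genes at 1 dpw and -0.00 over 134 genes at 5 dpw. A median over many genes cannot show whether 1 gene differs because of its position, and this was not tested for Abcg1.

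Macrophages in the wound were not uniform, and the genes differed in which of them they marked. Macrophage-like and monocyte-like cells together were split into 8 sub-clusters. Apoe was highest in the sub-cluster led by Ccl8, Cbr2 and C1qa, of which Cbr2 is known from resident tissue macrophages, with 7850 and 15800.1 CPM in Angptl4+/+ wounds of the 2 days and 5780.4 and 12431 CPM in Angptl4-/- wounds. In the sub-cluster led by Mt2, Ptges and Cxcl3, which hold inflammatory and metallothionein genes, Apoe was among the lowest at 1 dpw, at 568 and 745 CPM. Abca1 was ordered differently, with its highest levels in that same Mt2 sub-cluster (926, 741, 1027 and 841 CPM) and its lowest in the monocyte sub-cluster led by Prtn3 and Ace (32.8, 56.0, 21.2 and 30.4 CPM). Soat1 had 359, 295, 406 and 270.0 CPM in the sub-cluster led by Gpnmb and Slc6a8 and 348, 291, 348 and 339 CPM in the Mt2 sub-cluster, the 2 highest levels in each library but that of Angptl4-/- wounds at 5 dpw, where a sub-cluster led by Retnlg came second with 272 CPM. Nr1h3 had 43.0, 75.7, 56.0 and 81.0 CPM in the Ccl8 sub-cluster and 39.9, 97.3, 56.4 and 73.8 CPM in the Gpnmb sub-cluster. These were the 2 highest in each library but that of Angptl4-/- wounds at 1 dpw, where the sub-cluster led by Cxcl10 had 64.1 (47.1 to 85.2) CPM, and the intervals of the 3 overlapped. Of the Ch25h UMIs of these cells, 10, 3, 8 and 2 were in the Cxcl10 sub-cluster, which is led by interferon-induced genes, and they came from 13 cells.

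**Figure D3:**
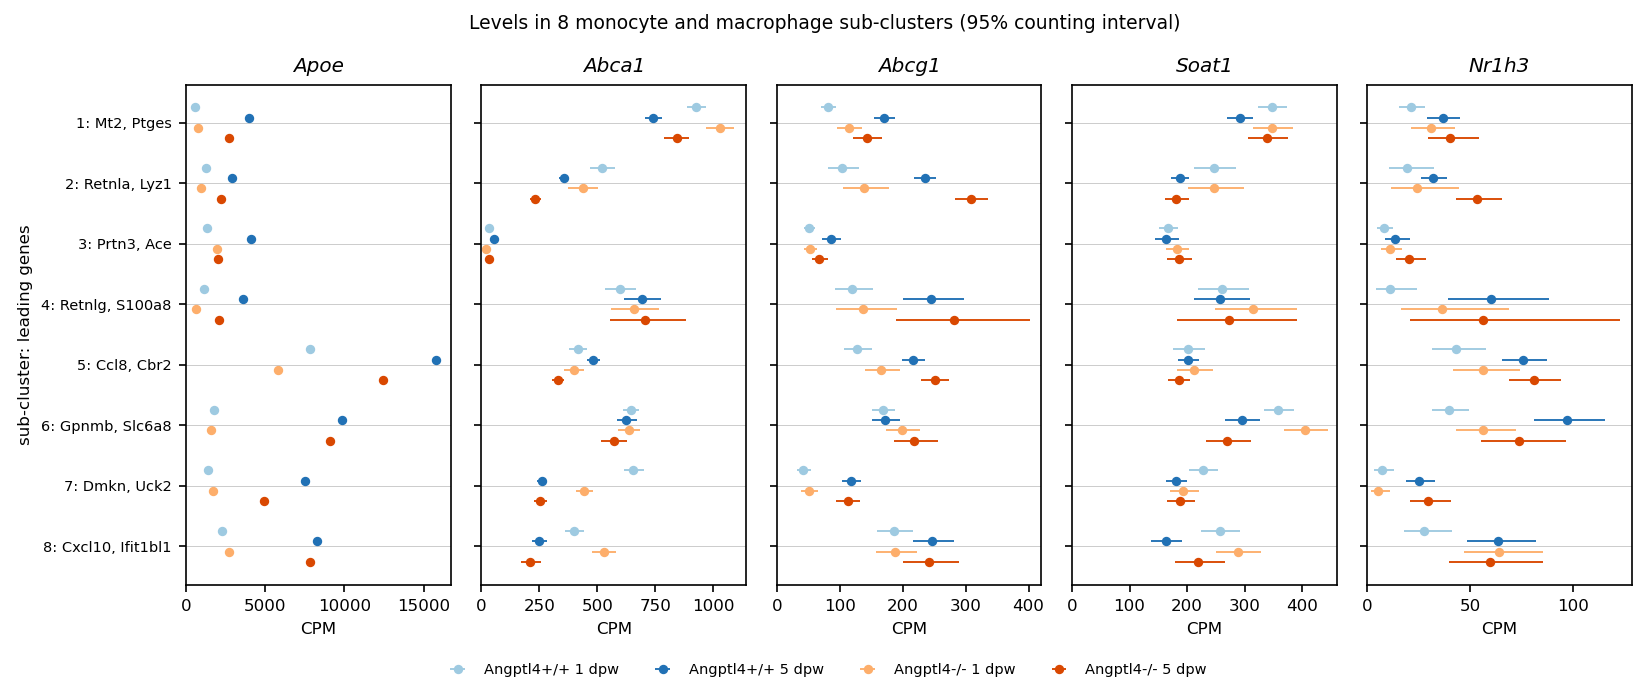
Levels (CPM, linear scale from 0) of 5 genes in 8 sub-clusters of monocyte-like and macrophage-like cells, 1 point per library with its 95% counting interval. Apoe is higher at 5 dpw than at 1 dpw in each sub-cluster of Angptl4+/+ wounds and highest in the Ccl8 sub-cluster, and Abca1 is highest in the Mt2 sub-cluster and near 0 in the Prtn3 sub-cluster.

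The day ratio of Apoe was present within the sub-clusters. All sub-clusters and clusters are cut from the same 4 libraries, so counts of them, here and below, are not counts of independent repeats. It was above 0 in 8 of 8 sub-clusters of both genotypes, from 1.01 to 2.81 on the log2 scale in Angptl4+/+ wounds and from 0.02 to 2.53 in Angptl4-/- wounds. The lowest, 0.02, belonged to the monocyte sub-cluster of Angptl4-/- wounds (1964 and 1991 CPM), where Angptl4+/+ wounds had 1333 and 4104 CPM. Of the 585 cells of that sub-cluster 78 were macrophage-like. It held 161 cells of Angptl4+/+ wounds at 5 dpw, a library with 123 monocyte-like cells, and 145 of Angptl4-/- wounds, with 131. Its genotype ratio at 5 dpw was -1.04, against -0.48 in monocyte-like cells, and the part of the macrophage-like cells was not tested. At 5 dpw Apoe was lower in Angptl4-/- than in Angptl4+/+ wounds in 8 of 8 sub-clusters, with log2 ratios from -1.04 to -0.07. At 1 dpw 4 sub-clusters were above 0 and 4 below. With the same sub-cluster weights in each library the genotype ratio of Apoe at 1 dpw was -0.22, against 0.08 as measured, so its sign at 1 dpw depended on the weights.

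The other genes were less uniform across the sub-clusters. The Abcg1 ratio of the days was above 0 in 8 of 8 sub-clusters of both genotypes, with the interval above 0 in 7 in Angptl4+/+ and 4 in Angptl4-/- wounds. Its genotype ratio was above 0 in 8 of 8 at 1 dpw (interval in 2). At 5 dpw it was above 0 in 4 (interval in 3) and below 0 in 4 (interval in 0). Over macrophage-like cells at 5 dpw it was 0.05 with equal weight per cell, in place of 0.19. The Nr1h3 ratio of the days was above 0 in 8 of 8 in Angptl4+/+ (interval in 6) and in 6 of the 7 with enough UMIs in Angptl4-/- wounds (interval in 4). The Soat1 ratio was below 0 in 7 of 8 in both genotypes, with the interval below 0 in 5 and 3. The Abca1 ratio was below 0 in 5 of 8 in Angptl4+/+ (interval in 4) and 6 of 8 in Angptl4-/- wounds (interval in 5). It was above 0 in the other 3 in Angptl4+/+ wounds, up to 0.77 and with the interval above 0 in 2. In Angptl4-/- wounds it was above 0 in 2, with the interval above 0 in 0. Without the sub-cluster led by the neutrophil genes Retnlg, S100a8 and S100a9, which held 574 macrophage-like cells and had a median of 1483.5 UMIs, the day ratios of Apoe were 1.82 and 1.5 and the count of genes past 2-fold was the same. The summed neutrophil markers were then 8334, 1653, 9183 and 1949.9 CPM, so they still moved with the day, and their part in the values was not tested.

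Neutrophil-like cells carried Abca1 and Soat1 at all times and Abcg1 mostly at 5 dpw. Abca1 had 188, 212, 186 and 255 CPM and Soat1 112, 134, 108 and 147 CPM. Abcg1 had 14.9 (13.3 to 16.7) CPM at 1 dpw and 94.6 (88.2 to 101) CPM at 5 dpw in Angptl4+/+ wounds, and 18.2 (16.3 to 20.2) CPM and 101 (95.3 to 107) CPM in Angptl4-/- wounds. Its log2 ratio of 5 to 1 dpw was 2.66 (2.47 to 2.86) and 2.47 (2.30 to 2.65), and it was 2-fold or more higher in 6 of 6 neutrophil-like clusters in both genotypes. Those clusters were made after integration of the libraries. Without it the days separated more, and 1 cluster held 1428, 30, 1243 and 33 cells and another 80, 1234, 47 and 1567, while the ratios over the whole class were 2.67 and 2.47. Apoe had 16.9, 157, 11.2 and 126 CPM there, log2 ratios of 3.22 and 3.48. Nr1h3 had 8, 5, 6 and 3 UMIs in the whole class. Markers of other cells were also higher at 5 dpw there. The 4 erythroid genes summed to 0.254, 3.69, 0.436 and 1309 CPM and the 6 mast cell or basophil genes to 0, 26.8, 0 and 142 CPM, and their part in these values was not tested.

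These day ratios stand beside a wide difference in neutrophil-like cells between the days. Of all genes 32.6% differed by 2-fold or more between the days in Angptl4+/+ and 34.7% in Angptl4-/- neutrophil-like cells, and 2 of 4 of the cholesterol genes (Apoe and Abcg1) did so in each. The median gene had a log2 ratio of 0.66 and 0.69 there, while the summed neutrophil markers went from 199219 to 103368 CPM and from 216147 to 104695 CPM. Scaling by the median of ratios lowered the day ratios by 0.83 and 0.86. Abcg1 was then at 1.84 and 1.61 and Apoe at 2.39 and 2.62, both still past 2-fold. Abca1 turned from 0.18 and 0.46 to -0.65 and -0.40, and Soat1 from 0.26 and 0.45 to -0.57 and -0.41, so neither has a fixed direction in these cells. Between the genotypes 0 of 4 genes reached 2-fold, where 0.959% of all genes did at 1 dpw and 1.11% at 5 dpw.

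Droplets also catch free RNA from other cells, so the neutrophil-like levels were set against 7 macrophage genes that neutrophils should mostly lack. All 7 are among the 12 macrophage markers used to name the clusters, which favours a low share of them outside macrophage-like cells. Of the macrophage-like level, the 7 genes had medians of 0.228%, 0.502%, 0.110% and 0.261% in neutrophil-like cells, and Adgre1 was the highest, at 10.3%, 9.41%, 10.1% and 11.9%. Abca1 stood at 29.2%, 46.6%, 31.1% and 66.8%, Soat1 at 38.6%, 61.4%, 37.7% and 67.8% and Abcg1 at 13%, 48.9%, 13.4% and 45.8%, each above all 7 in every library. Apoe stood at 0.801%, 2.08%, 0.504% and 1.96%, above 6 of 7 and below Adgre1. The share of neutrophil-like cells with an Apoe UMI was 6.17%, 22.6%, 3.81% and 17.5%, against 68.2%, 89.6%, 65.5% and 83.7% of macrophage-like cells. A part of Apoe in neutrophil-like cells from free RNA was not tested.

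**Figure D4:**
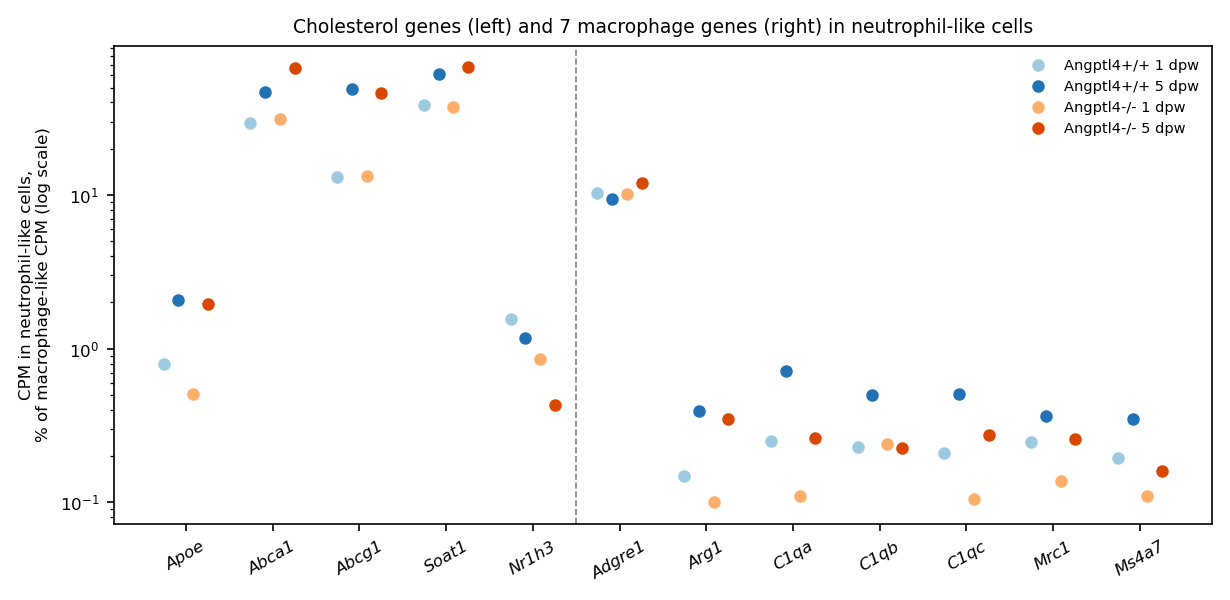
CPM in neutrophil-like cells as a percentage of CPM in macrophage-like cells (log scale) for 5 cholesterol genes, left of the dashed line, and 7 macrophage genes, right of it, with 1 point per library. Abca1, Abcg1 and Soat1 lie above all 7 macrophage genes in each library, and Apoe lies above 6 of them at 0.504% to 2.08%.

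In monocyte-like cells Apoe was already high at 1 dpw, and Abca1 was low. The class also carried all 10 neutrophil markers, with summed levels of 13076, 12519, 8995 and 7182 CPM, lower in Angptl4-/- wounds, and their part in the values was not tested. Apoe had 1118 (1074 to 1163) CPM and 2643 (2548 to 2740.3) CPM at 1 and 5 dpw in Angptl4+/+ wounds, giving a log2 ratio of 1.24 (1.16 to 1.32). In Angptl4-/- wounds it had 1646 (1586 to 1708) CPM and 1900.1 (1828 to 1974) CPM, giving a log2 ratio of 0.21 (0.13 to 0.28). Under 9 alternatives this ratio ranged from -0.08 to 0.28, and 2 of them had the opposite sign. The Angptl4-/- ratio was the smaller by 1.03 (0.93 to 1.14) on the log2 scale. Abca1 had 23.6, 36.8, 19.8 and 28.9 CPM, below neutrophil-like cells in each library. Apoe was the 1 of 3 genes tested that reached 2-fold, in Angptl4+/+ wounds between the days, beside 4.44% of all genes. In the other comparisons 0 of 3 did, beside 3.36% between the days in Angptl4-/- wounds and 0.742% and 0.920% between the genotypes at 1 and 5 dpw.

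Dendritic cell-like cells had a steady Abcg1 level, and their Abca1 and Apoe levels were far below those of macrophage-like cells. Abcg1 had 83.2, 95, 83.8 and 92.7 CPM, and the intervals of all 4 libraries overlapped. Abca1 had 58.2 (46.9 to 71.5) CPM and 19.5 (15.4 to 24.3) CPM at 1 and 5 dpw in Angptl4+/+ wounds and 53.7 (41.5 to 68.3) CPM and 22.8 (17.7 to 29.1) CPM in Angptl4-/- wounds, log2 ratios of -1.58 and -1.23. These are 9.06%, 4.28%, 8.99% and 5.99% of the macrophage-like levels, and lie above 6, 3, 5 and 6 of the 7 macrophage genes used above. Those 7 were chosen for neutrophil-like cells. In dendritic cell-like cells Mrc1, 1 of them, stood at 34.0%, 15.6%, 32.8% and 22.7% of the macrophage-like level. A rank among the 7 is therefore no measure of free RNA here, and the part of free RNA was not tested. Apoe had 46, 831, 76 and 105 UMIs, or 29.4, 205, 61.8 and 36.3 CPM.

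The Apoe values of dendritic cell-like cells rested on few cells. The 10% of cells with the most Apoe held 91.3%, 93.4%, 96.1% and 93.3% of the UMIs, and 1 cell of Angptl4+/+ wounds at 5 dpw held 381. Against the macrophage-like level Apoe was at 1.39%, 2.71%, 2.77% and 0.566%, above 1, 2, 4 and 1 of the 7 macrophage genes. By size, 2 of 4 genes reached 2-fold between the days in Angptl4+/+ wounds (Apoe and Abca1), beside 6.73% of all genes, and 1 of 4 (Abca1) in Angptl4-/- wounds, beside 3.78%. When the libraries were clustered without integration, that Abca1 ratio was 0.0904 in place of -1.23. Between the genotypes 1 of 4 did at each time point, beside 1.51% and 1.42% of all genes. It was Apoe in both, with opposite signs, at 1.07 at 1 dpw and -2.50 at 5 dpw. The value at 1 dpw was under 2-fold in 4 of 9 alternatives, down to 0.35 with equal weight per cell. The macrophage genes C1qa, C1qb and C1qc moved with Apoe between the days in Angptl4+/+ wounds, from 16.0, 7.04 and 0 CPM to 46.1, 72.8 and 20.7 CPM, and in Angptl4-/- wounds they went from 8.95, 24.4 and 4.07 CPM to 29.1, 42.6 and 10.0 CPM, where Apoe did not rise. In Angptl4+/+ wounds at 5 dpw a C1q UMI was in 11 of the 31 cells with the most Apoe and in 34 of the other 276. The part of macrophage RNA in these values was not tested.

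The rest of the pathway was read in macrophage-like cells from a list of 67 genes. Between the days in Angptl4+/+ wounds, 7 of the 47 listed genes with enough UMIs were 2-fold or more higher at 5 dpw and 1 was lower, where 6.41% of all genes were higher and 4.28% lower. After thinning the counts were 4 and 0, and with equal sub-cluster weights or monocyte-like cells added 0 were lower. The shares of all genes under these alternatives are not given. Pltp, which encodes a phospholipid transfer protein, had a log2 ratio of 3.22 (3.11 to 3.33) from 81.4 to 757 CPM, and Lpl, the lipoprotein lipase that Angptl4 inhibits, 2.62 (2.53 to 2.70) from 142 to 869 CPM. Lipa, the lysosomal acid lipase, was at 1.49 (1.38 to 1.59), the oxysterol receptor gene Gpr183 at 1.5 (1.28 to 1.72) and the sterol 27-hydroxylase gene Cyp27a1 at 1.42 (0.92 to 1.94). The gene that was lower, Gramd1b, encodes a sterol transfer protein and was at -1.16 (-1.42 to -0.91). In Angptl4-/- wounds 4 of 42 were higher and 0 lower, beside 331 higher and 288 lower of all 7885 genes tested (7.85% in all). These were Lpl at 2.88 (2.79 to 2.98), Pltp at 2.66 (2.53 to 2.79), Lipa at 1.70 (1.55 to 1.84) and Cyp27a1 at 1.67 (0.97 to 2.44).

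**Figure D5:**
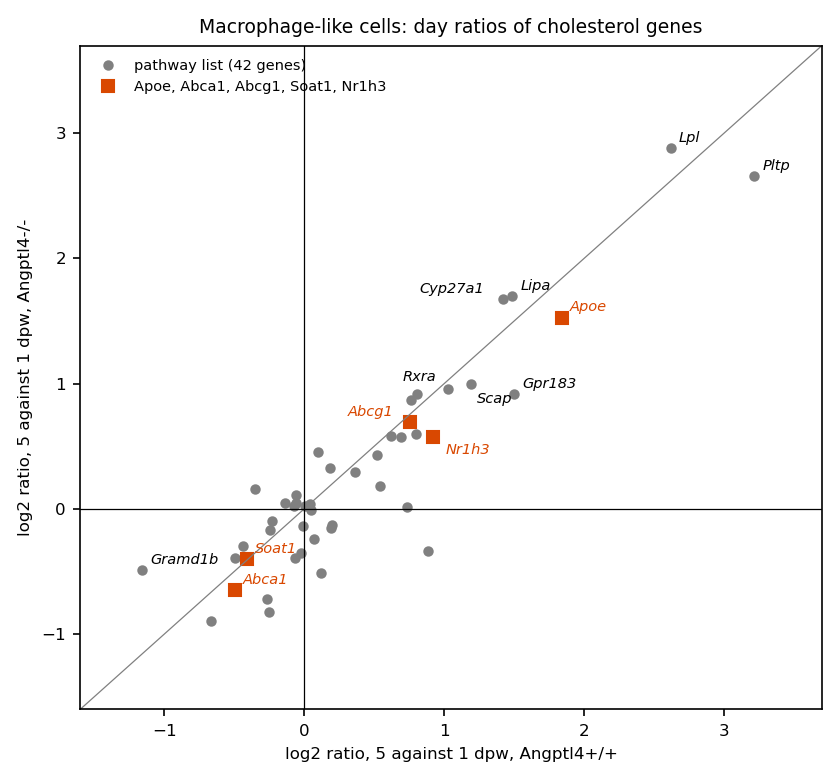
Log2 ratio of 5 to 1 dpw in macrophage-like cells of Angptl4+/+ (x axis) and Angptl4-/- wounds (y axis), for 42 pathway genes (grey) and 5 of the 6 genes of the report (orange); each axis is a ratio of 1 library to 1 library, and the diagonal marks equal ratios. Pltp, Lpl, Lipa, Cyp27a1 and Apoe lie beyond 1 on both axes, while Abca1 and Soat1 lie below 0 on both.

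By group, the members past 2-fold between the days were few, and the shares over all genes are those just given. Of the partners of Apoe in lipoprotein handling 2 of 5 tested were higher at 5 dpw in both genotypes (Pltp and Lpl). Of oxysterol synthesis and its receptor 2 of 2 were higher in Angptl4+/+ wounds (Gpr183 and Cyp27a1) and 1 of 2 in Angptl4-/- wounds. Of 9 genes of lysosomal release and esters 1 was higher (Lipa) and 1 lower (Gramd1b) in Angptl4+/+ wounds, and 1 was higher in Angptl4-/- wounds. Of the 6 receptors and partners of oxysterol sensing 1 was higher in Angptl4+/+ wounds (Rxra), and 0 in Angptl4-/- wounds. Of the 20 tested genes of sterol synthesis and uptake 1 was higher in Angptl4+/+ wounds (Scap), and 0 of 15 in Angptl4-/- wounds. Of the 5 genes tested in the list's own group of LXR targets, which leaves out Pltp and Lpl, 0 reached 2-fold in either genotype or between the genotypes. Rxra and Scap were named here after their values were seen. The median log2 ratio of the whole list was 0.19 and 0.04, close to the 0.15 and 0.07 of all genes.

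Between the genotypes at 1 dpw 3 of 41 genes of the list were 2-fold or more higher in Angptl4-/- macrophage-like cells and 0 lower, beside 0.740% of all genes in either direction. The count was 0 after thinning or at resolution 1.0, and 1 with the stricter cell filter, equal weight per cell or monocyte-like cells added, where the shares of all genes are not given. The 3 were the sterol synthesis genes Sqle at 1.25 (0.77 to 1.73) and Cyp51 at 1.15 (0.63 to 1.68) and the receptor gene Gpr183 at 1.01 (0.75 to 1.27). Sqle rested on 97 UMIs in Angptl4-/- and 63 in Angptl4+/+ cells, and Cyp51 on 78 in Angptl4-/- and 54 in Angptl4+/+ cells. At 5 dpw 0 of 48 reached 2-fold, beside 1.13%. The genes of the list's LXR target group were named here after their values were seen. Of the 5 tested 0 reached 2-fold at 5 dpw, and the median gene of all genes was at -0.02. The log2 ratios were -0.74 (-0.84 to -0.65) for Smpdl3a, -0.54 (-0.85 to -0.23) for Srebf1 and -0.51 (-0.64 to -0.39) for Scd2. Mylip was at -0.20 and Lpcat3 at 0.13. At 1 dpw the same 5 genes lay between -0.19 and 0.11. The group of lipoproteins and efflux partners had a median of 0.16 at 5 dpw, against -0.51 in the LXR target group. Of the whole list 24 of 48 were above 0 at 5 dpw. The share of all genes below 0 was not counted. The medians of the whole list were 0.01 and -0.01, beside 0.02 and -0.02 over all genes.

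The genes whose levels moved most like each of the 6 were sought over 46 pairs of cluster and library with at least 50 cells, among 8717 genes. The pairs come from 12 clusters and share libraries. The correlations therefore mix which clusters hold a gene with differences between the days and genotypes inside a cluster. Apoe and Abcg1, for example, were both higher at 5 than at 1 dpw in 6 of 6 neutrophil-like clusters of each genotype. The parts of cluster and day in a correlation were not separated. The 3 genes most like Apoe were Man1c1 (r = 0.936), Pla2g15 (0.930) and Trem2 (0.928), and those most like Nr1h3 were Cmklr1 (0.966), Sash1 (0.958) and Itgb5 (0.946). For Abca1 they were Sdcbp (0.863), Vegfa (0.855) and Ctsl (0.850), for Soat1 Zeb2 (0.873), Vps26a (0.845) and Atp6v1b2 (0.840), and for Abcg1 Morf4l1 (0.895), Dynll1 (0.881) and Ythdf1 (0.850). For Ch25h, with its 63 UMIs, they were Kdr (0.822), Il15ra (0.796) and Car13 (0.767). Among the 6 genes themselves, the closest pair was Apoe and Nr1h3 (0.885), followed by Apoe and Abcg1 (0.733) and Nr1h3 and Abcg1 (0.632). Abca1 was closest to Soat1 (0.617) and had r = 0.229 with Apoe and 0.228 with Abcg1.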

How the data were processed

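Live CD45+ cells of 4 libraries, 1 per genotype and time point, were analysed. The authors aligned reads to mm10 with Cell Ranger (3.1.0, per the submitters' notes, which also name Seurat 3.0) and deposited raw UMI counts per gene and barcode. Cells with at least 200 genes and at most 10% mitochondrial UMIs were kept, joined with Seurat anchors (Seurat 5.3.0 in R 4.3.3, 2000 variable genes without the 6 genes and the pathway list, 30 dimensions) and clustered by Louvain at resolution 0.5. A cluster took the class whose markers scored highest, and 34 cells stayed unnamed. The names were rebuilt here and can differ from the study's. Scrublet (in Scanpy 1.11.5, Python 3.11.15) marked under 0.5% of cells at its own threshold, so the highest scores were called at 0.8% per 1000 cells (229, 196, 184 and 180 cells) and kept. Monocyte-like and macrophage-like cells were split into 8 sub-clusters by k-means (scikit-learn 1.9.0).

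UMIs were summed per class and library and divided by the class total. CPM has an exact Poisson interval, a log2 ratio an exact conditional binomial interval (SciPy 1.17.1), and a difference of ratios a normal interval from the counts. The scripts were tested on simulated data. With 1 library per condition no p-value was computed. A gene with at least 100 UMIs over both libraries counts as past the size rule at 2-fold. Summed counts of a class also hold free RNA and doublets, and a total of few strong genes moves every CPM. Named were the 6 genes, at most 5 pathway genes past 2-fold in each direction (Rxra, Scap and the LXR targets were added after their values were seen), the 3 genes most like each by Pearson's r of log2(CPM + 10) among genes with at least 500 UMIs, and at most 3 leading genes per cluster. Members, lists and rules were chosen with earlier results of these data known. Of 15 marker lists, the macrophage-like cells held at most 9.12 CPM of fibroblast, 2.61 of keratinocyte, 46.0 of endothelial, 5.73 of erythroid, 0.261 of adipocyte and 0.651 of Langerhans cell genes, 32.8 of mast cell or basophil, 6.38 of NK cell/T cell, 77.5 of B cell and 54.7 of dendritic cell genes. Their summed monocyte markers were 2933 to 4005 CPM and the 5 resident macrophage genes 97.5 to 249 CPM.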

Additional observations from a re-analysis of the deposited data

Results flagged for a closer look

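In dendritic cell-like cells the day ratio of Apoe pointed in opposite directions in the genotypes. The log2 ratio of 5 to 1 dpw was 2.80 in Angptl4+/+ wounds and -0.77 in Angptl4-/- wounds. Each ratio compares 1 library with 1 library, and the difference was not tested. Without the called doublets (3, 14, 0 and 1 cells) the levels were 18.4 and 185 CPM in Angptl4+/+ wounds (first 1 dpw, then 5 dpw) and 61.8 and 36.5 CPM in Angptl4-/- wounds. Apoe UMIs were in 15 and 86 dendritic cell-like cells of Angptl4+/+ wounds and in 12 and 27 of Angptl4-/- wounds. In the same cells C1qa, C1qb and C1qc were higher at 5 dpw than at 1 dpw in both genotypes.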

How the results depend on the processing

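The ratios in macrophage-like cells of the genes other than Ch25h, the counts past 2-fold, or both were recomputed under 13 alternatives planned at the start. One more, which leaves out the sub-cluster led by neutrophil genes, and the alternatives for the ratios in the other classes were chosen after seeing the data. Each ratio had 12 alternatives in macrophage-like cells and 9 in the other classes, because another fold or UMI minimum changes only the counts. Over 636 recomputed log2 ratios, 510 lay within the interval of the reported value, 52 had the opposite sign, 23 moved by over 1.5-fold and 13 crossed 2-fold. The day ratios of Apoe in macrophage-like cells lay between 1.67 and 1.99 in Angptl4+/+ wounds, and between 1.42 and 1.88 in Angptl4-/-, and its genotype ratio from -0.37 to -0.18 at 5 dpw and from -0.22 to 0.13 at 1 dpw. For Nr1h3 the genotype ratio at 5 dpw ranged from -0.44 to 0.27, so it has no fixed sign. Without integration the Abca1 ratio of dendritic cell-like cells in Angptl4-/- wounds between the days was 0.0904 in place of -1.23; the cause was not tested. Of the 5 genes, 2 were past 2-fold between the days in Angptl4+/+ wounds after thinning, with equal sub-cluster weights and with monocyte-like cells added. At a fold of 1.5, 3 were higher in Angptl4+/+ wounds, and 2 were higher and 1 lower in Angptl4-/- wounds. The shares of all genes under these settings are not given, so these counts cannot be read as particular to the 5 genes.

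For the pathway list, the counts higher and lower between the days in Angptl4+/+ wounds (7 and 1) were 16 and 2 at a fold of 1.5, 4 and 0 after thinning, 11 higher with at least 20 UMIs, and 0 lower with equal sub-cluster weights or monocyte-like cells added. In Angptl4-/- wounds (4 and 0) they were 10 and 3 at a fold of 1.5, 9 higher with equal weight per cell, 8 at resolution 1.0 and 7 with equal sub-cluster weights, with 1 lower under median-of-ratios scaling or at least 20 UMIs. Between the genotypes at 1 dpw (3 and 0) they were 6 and 1 at a fold of 1.5, 1 higher with the stricter filter, equal weight per cell or monocyte-like cells added, and 0 after thinning or at resolution 1.0. At 5 dpw (0 and 0) they were 2 and 1 at a fold of 1.5, 1 higher without integration, with the stricter filter or with equal sub-cluster weights, and 1 lower with at least 20 UMIs. The shares of all genes under these alternatives are not given. These counts therefore show only how the list's own counts moved, and not whether the list differs from other genes. No paired analysis was possible because each condition had 1 library. No library could be left out for the same reason, and genes such as Nr1h3 and Ch25h are limited by their few UMIs.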
